A study of Mus musculus with 8 samples.

Results

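The solute carrier (Slc) genes are described here as a group of membrane transporter genes measured in mouse bone marrow-derived dendritic cells. Members were the array probes whose gene name begins with Slc and a number and that were well above background, as the scanner software flags it, on both arrays of at least 1 group. The glucose, lactate, cystine, arginine and iron carriers Slc2a1, Slc2a3, Slc2a6, Slc16a1, Slc16a3, Slc7a1, Slc7a2, Slc7a11, Slc40a1, Slc11a1, Slc11a2 and Slc25a37 were left out by rule. Of 552 eligible probes, 323 met the background rule (58.5%), and they represented 205 of 336 genes (61%) in 42 Slc families. By name, 201 of the 205 are carriers, and Slc9a3r1, Slc9a3r2, Slc7a6os and Slc4a1ap carry the name of a partner, scaffold or overlapping gene. Because signal chose the members, detection is a description only. The 2 genes that met the rule on only 2 arrays had mean scaled log2 signals of -5.64 and -5.25, and the 45 genes that reached the flag on 1 array of a group at most lay between -6.91 and -4.87.

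Dendritic cells came from male C57BL/6Jax mice, either wild type (WT) or lacking the microRNA miR-155 (KO). All groups were grown from total bone marrow for 7 days with GM-CSF, a myeloid growth factor, at 40 ng/mL. The LPS groups then received 100 ng/mL lipopolysaccharide, a bacterial cell wall component, for 16 h and were sorted as CD86+ cells, whereas the unstimulated groups were sorted as CD86- cells. Each of the 4 groups (WT unstimulated, WT LPS, KO unstimulated, KO LPS) had 2 one-colour arrays, so every LPS comparison also compares the sort gates. The labels do not say whether replicates were separate animals or cultures, and p-values therefore measure only the spread between these samples, which may be technical. The deletion of miR-155 itself was not checked here.

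Solute carriers move amino acids, sugars, nucleosides, metals, ions and organic acids across the plasma membrane and across the membranes of mitochondria, lysosomes, endosomes and the Golgi. Most are secondary active transporters or exchangers that use sodium, proton or substrate gradients, and some need a partner subunit to reach the membrane. Dendritic cells are known to change their metabolism, endocytosis and lysosomal acidification when they mature after sensing LPS through Toll-like receptor 4.

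The scanner flag was set on 50.8% to 58.3% of the spots of an array, 0 spots were saturated, and 182 to 197 members were flagged well above background per array. All values below are scaled log2 signals, on which 0 is the 75th percentile of the array, so a difference of 1 is a doubling. Levels are compared for a probe across arrays and never between genes. All 16 dendritic cell markers measured were well above background on both arrays of each unstimulated group and 14 of them in each LPS group. Of these 16, 3 were called higher and 3 lower after LPS in each genotype. Markers of other cells moved with LPS as well. Of 14 macrophage markers, 7 were called lower and 1 higher in each genotype, and the marker called higher was not the same in WT and KO. Of 8 mast cell and basophil markers 4 were lower and 2 higher in each genotype. Of 6 stromal markers 4 were higher in WT and 3 in KO, and of 5 erythroid markers 2 were higher in each. The summed signal of the mast cell and basophil markers, in units of the array's 75th percentile, was 1.01 to 3.64 on unstimulated and 6.12 to 115 on LPS arrays, that of the erythroid markers 0.401 to 0.863 and 21.7 to 56.2, and that of the stromal markers 0.395 to 0.936 and 4.41 to 14. The part of such cells in the results below was not tested. Fewer cells of a type and less RNA per cell cannot be told apart in these bulk samples.

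In WT cells, 48 of the 205 members changed with LPS (limma, adjusted p under 0.05 over all genes), 20 higher and 28 lower, or 23.4% of members beside 20.2% of the 15401 genes tested. Among all genes, 9.48% were higher and 10.7% lower. In KO cells 52 members changed, 20 higher and 32 lower, or 25.4% beside 20.8% of 15400 genes, with 10.3% of all genes higher and 10.5% lower. The share of members called was thus close to that of all genes in both genotypes. The median LPS difference over members was -0.15 in WT and -0.06 in KO, beside 0 and 0.05 over all genes. A member that was seen in only some groups passed the background rule through the group in which it was high, so the 164 members well above background in all 4 groups were also counted alone. Among these, 13 were higher (7.93%) and 24 lower (14.6%) in WT, beside 7.25% and 9.88% of the 12326 genes seen on all arrays, and 13 were higher (7.93%) and 26 lower (15.9%) in KO, beside 7.99% and 9.74%. In WT, 2 of the 20 rises, those of Slc15a3 and Slc22a23, rest on 1 usable LPS array and take their spread from the other groups. Without them 18 members were higher in WT and 15 in both genotypes.

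The same 44 members were called in both genotypes, 17 higher in both and 27 lower in both, and 0 were called in opposite directions. They made up 91.7% of the WT calls and 84.6% of the KO calls, beside 84.6% and 82% over all genes. Over all genes, 6 of the 3680 called in either genotype were called in opposite directions. The 4 called in WT alone were Slc25a22, Slc25a25, Slc9a8 and Slc43a2, and the 8 called in KO alone were Slc6a9, Slc25a47, Slc7a6os, Slc22a16, Slc25a24, Slc25a15, Slc16a8 and Slc5a11. None of these 12 had a called difference between the genotypes' responses. Across the 205 members the LPS differences of the genotypes, which share no arrays, correlated with r = 0.97 (Spearman rho = 0.96), beside 0.94 and 0.92 over all genes. This is a description across genes that share the same 8 arrays and their scaling.

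**Figure D1:**
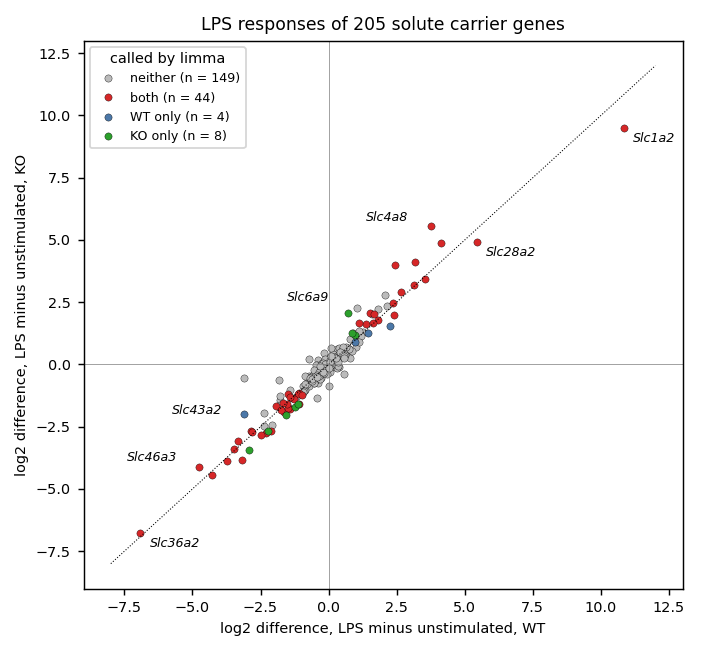
Log2 difference between LPS and unstimulated arrays for each of the 205 members in WT (horizontal axis) and KO (vertical axis), coloured by whether limma called it in both genotypes, in 1 or in neither, with the line of equality dotted. The points lie along the line from Slc36a2 (-6.91 in WT, -6.76 in KO) to Slc1a2 (10.85 and 9.51).

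The number of calls rested on the pairs of arrays. Leaving out 1 WT array reduced the WT count from 48 to 25 (without unstimulated replicate 1), 26 (without unstimulated replicate 2), 22 (without LPS replicate 1) and 14 (without LPS replicate 2). The KO count fell from 52 to 25 without KO unstimulated replicate 2, 28 without KO LPS replicate 1 and 25 without KO LPS replicate 2. Without KO unstimulated replicate 1 the KO count fell less. All called members kept the sign of their difference in each of the 8 fits that left out 1 array, except that Slc15a3 and Slc22a23 have no WT value without WT LPS replicate 1. By the scan date in the file headers the arrays fell into 2 sets, called slide 1 and slide 2 here. Whether each set shared a physical slide was not checked. Slide 1 held the 2 WT unstimulated arrays with replicate 2 of WT LPS and of KO unstimulated, and slide 2 held the rest. With slide as a term in the fit, 35 members were called in WT and 42 in KO. On slide 1 alone 23 were called for WT (9 higher, 14 lower), and on slide 2 alone 6 for KO (2 higher, 4 lower). Another background correction, normexp, called only 8 members in WT and 17 in KO. Slc1a2, Slc28a2, Slc22a23, Slc4a8, Slc45a4 and Slc46a3 were called in both genotypes under it.

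The promoter windows of 4 genes are shown because they are members whose LPS responses are described below and because 3 of them hold a searched motif. Each covers 250 bases before to 50 bases after a RefSeq gene start in GRCm38.p6, which is not the mm9 build of the array files. All are printed 5′ to 3′ on the gene's strand with the motif in capitals. Slc1a2 (chr2:102706188-102706487, plus strand) encodes a glutamate carrier, had the largest rise, and held none of the motifs. Slc4a8 (chr15:100761497-100761796, plus strand), a sodium-driven chloride/bicarbonate exchanger gene, held a kappaB consensus match starting at base -158 from the gene start. Slc25a22 (chr7:141435326-141435625, minus strand), a mitochondrial glutamate carrier gene, held an interferon-stimulated response element core at -79. This window was printed because it held the motif, and the gene's other RefSeq windows held none of the motifs. Slc36a1 (chr11:55204090-55204389, plus strand), a lysosomal amino acid carrier gene, held the palindromic E-box TCACGTGA of the type found in lysosomal genes at -4.
Slc1a2: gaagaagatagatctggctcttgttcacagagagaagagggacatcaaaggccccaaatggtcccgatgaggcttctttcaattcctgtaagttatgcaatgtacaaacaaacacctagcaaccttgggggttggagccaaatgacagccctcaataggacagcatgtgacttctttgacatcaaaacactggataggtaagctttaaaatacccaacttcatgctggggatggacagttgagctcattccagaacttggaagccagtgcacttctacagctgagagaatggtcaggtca
Slc4a8: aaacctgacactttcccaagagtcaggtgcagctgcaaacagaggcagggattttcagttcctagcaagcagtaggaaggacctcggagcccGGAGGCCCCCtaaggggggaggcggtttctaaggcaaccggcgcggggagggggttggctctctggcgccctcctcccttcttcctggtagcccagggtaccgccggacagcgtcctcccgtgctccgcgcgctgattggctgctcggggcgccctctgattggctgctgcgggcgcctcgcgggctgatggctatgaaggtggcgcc
Slc25a22: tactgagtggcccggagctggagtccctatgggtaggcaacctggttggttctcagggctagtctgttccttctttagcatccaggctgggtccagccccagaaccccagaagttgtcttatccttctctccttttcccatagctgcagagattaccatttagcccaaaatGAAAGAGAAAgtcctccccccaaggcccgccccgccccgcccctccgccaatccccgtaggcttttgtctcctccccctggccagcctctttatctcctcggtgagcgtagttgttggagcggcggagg
Slc36a1: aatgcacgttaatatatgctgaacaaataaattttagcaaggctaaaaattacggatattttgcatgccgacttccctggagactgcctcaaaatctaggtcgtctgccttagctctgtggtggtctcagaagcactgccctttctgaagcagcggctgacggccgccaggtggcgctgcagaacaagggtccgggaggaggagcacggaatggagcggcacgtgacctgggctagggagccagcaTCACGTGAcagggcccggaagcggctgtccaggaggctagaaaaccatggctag

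RefSeq windows were found for 157 of the 205 members, 210 windows in all, and both strands were searched for 4 motifs. In no member window did matches of different motifs overlap. Of the windows of genes called higher, 1 of 26 held the interferon element core (Slc25a22), 1 of 26 the kappaB consensus (Slc4a8), and 0 of 26 the E-box or TGATGNAA, the core of the amino acid response element. Of those of genes called lower, 5 of 38 held the kappaB consensus (in Slc29a1, Slc35c2, Slc41a3 and Slc43a2), 1 of 38 the interferon element core (Slc25a15), 1 of 38 the E-box (Slc36a1) and 1 of 38 TGATGNAA (Slc9a9). Among all 32851 RefSeq mouse windows of that length, 8.46% held the kappaB consensus, 3.44% the interferon element core, 3.97% TGATGNAA and 0.974% the E-box. The Slc35c2 windows overlap, and their kappaB matches, at -25 and 26 from the respective starts, are the same site counted in each window. A match is a run of letters in the window and was not tested as a binding site.

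Members were grouped by the role of their family. The shares of all genes beside these counts were 9.48% higher and 10.7% lower in WT and 10.3% and 10.5% in KO. Among 26 amino acid carriers of the plasma membrane, 5 were higher and 4 lower in WT, and 6 were higher and 3 lower in KO. The median difference was 0.15 in WT and -0.03 in KO. Of 15 lysosomal and proton-coupled carriers 1 was higher and 7 were lower in each genotype, with medians of -1.42 and -1.29. Mitochondrial carriers, 33 genes of the Slc25 family, had 4 higher and 2 lower in WT and 3 higher and 4 lower in KO, with medians of -0.03 and 0.03. Ion exchangers counted 29 genes, 2 higher and 4 lower in WT and 1 higher and 4 lower in KO. Among 23 metal carriers, 2 were higher and 3 lower in each genotype.

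**Figure D2:**
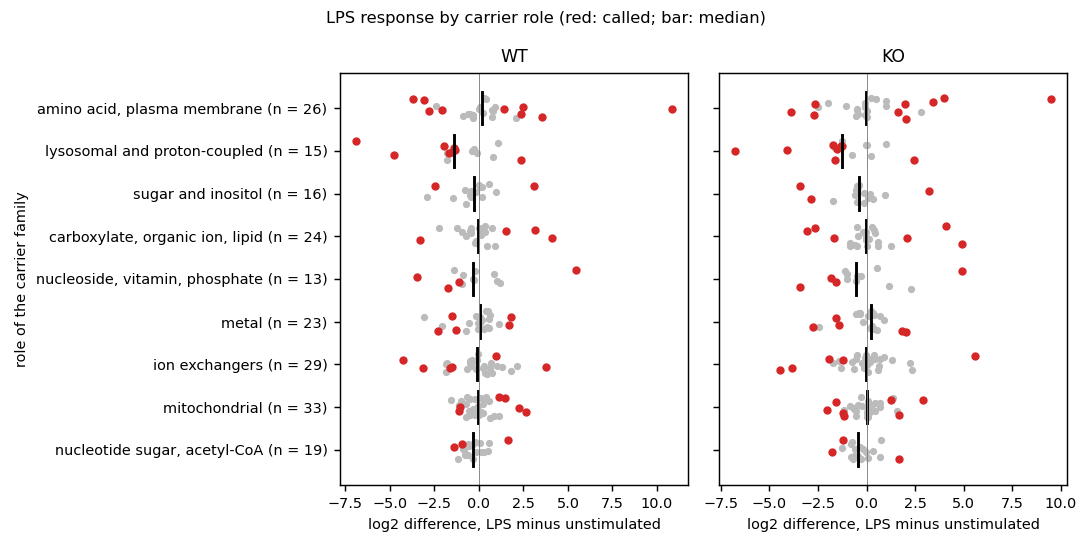
Log2 difference between LPS and unstimulated arrays (horizontal axis) of the members of each carrier role (vertical axis), in WT on the left and KO on the right, with called members in red, others in grey and a bar at the median. The lysosomal and proton-coupled carriers have the lowest medians, -1.42 in WT and -1.29 in KO.

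Family counts were small, and the share of all genes called was 20.2% in WT and 20.8% in KO. Of the 13 families with at least 5 members, 12 are given here. In Slc25, the mitochondrial carriers, 6 of 33 were called in WT (18.2%) and 7 in KO (21.2%). The nucleotide sugar family Slc35 had 2 of 18 lower in each genotype and 0 higher, and the zinc importers of Slc39 had 2 of 12 lower in each and 0 higher. Slc22, the organic ion carriers, had 1 of 11 higher in each genotype and 1 lower in KO. The bicarbonate carriers of Slc4, counted here with Slc4a1ap, had 1 of 9 higher in each genotype. Slc6, the sodium-coupled amino acid and neurotransmitter carriers, had 1 of 9 higher in WT and 2 in KO. In Slc7, amino acid exchangers counted here with Slc7a6os, 2 of 7 were higher and 1 lower in WT, and 3 were higher and 1 lower in KO. The cation/chloride cotransporters of Slc12 had 1 of 6 lower in each genotype. The monocarboxylate carriers of Slc16 had 2 of 6 higher and 1 lower in WT and 2 higher and 2 lower in KO, and Slc5, the sodium/sugar cotransporters, had 1 of 5 higher in each and 1 lower in KO. By the brightest probe, 0 of 6 zinc exporters of Slc30 and 0 of 5 glutamine and neutral amino acid carriers of Slc38 were called in either genotype, although Slc38a1 and Slc38a9 had other probes called lower in both.

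The choice of the brightest probe for each gene decided some calls. Other probes were tested in a fit of all probes, with p-values adjusted over the probes. Of 86 members with several probes past the background rule, 20 were called in WT and 18 in KO, and for Slc17a9, Slc31a1 and Slc48a1 in both genotypes and Slc43a2 in WT no other probe was called. Another probe was called where the brightest was not for 5 members in WT (Slc26a2, Slc38a1, Slc38a9, Slc39a14 and Slc41a1). In KO this held for 9 members, namely Slc2a9, Slc8a1, Slc9a8, Slc25a25, Slc26a2, Slc35c1, Slc38a1, Slc38a9 and Slc41a1. In neither genotype were probes of 1 gene called in opposite directions (0 genes).

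Amino acid carriers at the plasma membrane included the member with the largest rise, Slc1a2, the high-affinity glutamate transporter best known from astrocytes. Its probe (mm9 chr2:102617706-102617765) read -6.76 and -6.54 on the WT unstimulated arrays, -4.5 and -7.23 on the KO unstimulated arrays, 4.23 and 4.16 after LPS in WT and 3.71 and 3.58 after LPS in KO. All 4 LPS arrays stood far above all 4 unstimulated arrays. The LPS difference was 10.85 ± 0.77 in WT (SE, n = 2 arrays per group; adjusted p = 0.000438) and 9.51 ± 0.77 in KO (adjusted p = 0.000596). Neither WT unstimulated array was well above background, so the WT level was at least 422-fold higher after LPS, a bound set by the dimmest signal flagged above background on each unstimulated array. The other 3 probes of the gene rose as well, by 4.48 to 11.07 in WT and 4.7 to 10.58 in KO. Within slide 1 the WT difference was 10.81 and within slide 2 the KO difference was 8.15.

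The cationic amino acid carrier Slc7a3 read -6.39 and -5.64 in WT unstimulated, -5.71 and -6.08 in KO unstimulated, -1.54 and -3.44 in WT LPS and -1.81 and -3.08 in KO LPS arrays. It was not well above background in either unstimulated group, so its rise was at least 4.1-fold in WT (adjusted p = 0.0152) and at least 8.15-fold in KO (adjusted p = 0.0155). Slc6a15, a carrier of branched-chain amino acids and proline, likewise appeared only in LPS arrays. It read -6.99 and -6.64, -7.97 and -7.39 in the unstimulated WT and KO arrays and -3.98 and -4.76, -3.01 and -4.36 in the LPS arrays. The bounds were at least 1.11-fold in WT and at least 3.46-fold in KO (adjusted p = 0.0182 and 0.00284). Slc7a4, a relative of the cationic amino acid carriers, went the other way. Its signal was -1.58 and -2.28 in WT and -2.32 and -1.52 in KO before LPS, and -5.46 and -5.84 in WT and -5.5 and -6.08 in KO after LPS. No LPS array was well above background for this probe, and the fall was at least 9.35-fold in WT (adjusted p = 0.0019) and at least 10.6-fold in KO (adjusted p = 0.00144). With normexp the differences were -1.62 and -0.04, not called (adjusted p = 0.339 and 0.978).

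Slc3a2, the CD98 heavy chain that brings several Slc7 light chains to the cell surface, rose by 1.38 ± 0.29 in WT and 1.61 ± 0.29 in KO (adjusted p = 0.0182 and 0.0101). Its partner Slc7a8, a neutral amino acid exchanger, read 2.57 and 1.67, 2.37 and 1.68 in unstimulated WT and KO arrays, and 4.62 and 4.4, 4.25 and 3.81 after LPS. That was a rise of 2.39 ± 0.4 in WT and 2.0 ± 0.4 in KO (adjusted p = 0.00901 and 0.0155). Slc7a5, another light chain of Slc3a2 and the main large neutral amino acid exchanger of activated lymphocytes, had differences of 0.39 ± 0.91 and -0.09 ± 0.91. Its 8 values ranged from -2.81 to -0.35, and the replicate 2 array was the lower one in all 4 groups. Slc7a6 and Slc7a7 had differences of 0.28 ± 0.32 and -0.39 ± 0.34 in WT and were not called in KO either. Slc1a5, a glutamine and neutral amino acid exchanger, fell, with LPS differences of -2.1 ± 0.49 in WT and -2.68 ± 0.49 in KO (adjusted p = 0.0261 and 0.0107). It read 4.15 and 2.66, 3.88 and 3.38 before LPS, and 1.42 and 1.19, 1.05 and 0.84 after it, with no overlap. The sodium-coupled glutamine carriers Slc38a1 and Slc38a2 had WT differences of -0.89 ± 0.35 and -0.32 ± 0.29, and the taurine carrier Slc6a6 one of -0.51 ± 0.29, none of them called by the brightest probe. Of the other 4 probes of Slc38a1, 3 were called lower in both genotypes, with WT differences of -1.4, -1.16 and -1.36 (limma, adjusted p = 0.0274, 0.0412 and 0.031).

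Both Slc43 members fell in WT. Slc43a3, which lies in an amino acid carrier family but is known to carry purine nucleobases, fell, its differences being -2.8 ± 0.51 in WT and -2.72 ± 0.51 in KO (adjusted p = 0.0114 and 0.0118). Slc43a2, a branched-chain amino acid carrier, read 0.81 and 2.16 in WT and 0.8 and 2.0 in KO before LPS, and -2.11 and -1.1 in WT and -0.62 and -0.53 in KO after LPS. It fell by 3.09 ± 0.6 in WT (adjusted p = 0.0146), and its KO difference of -1.98 ± 0.6 missed the threshold (adjusted p = 0.0604). Its other probe gave -1.47 in WT and -0.68 in KO, not called. Slc1a2 and Slc7a4 in both genotypes and Slc6a15 and Slc6a9 in KO kept their calls whichever array was left out. The other calls of the amino acid group in WT were lost without at least 1 WT array, Slc3a2 with an adjusted p of up to 0.103 without LPS replicate 2, Slc1a5 up to 0.112 without the same array, and Slc43a2 up to 0.0754 without LPS replicate 1. Slc6a15 was no longer called in WT with slide as a term (adjusted p = 0.0539).

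**Figure D3:**
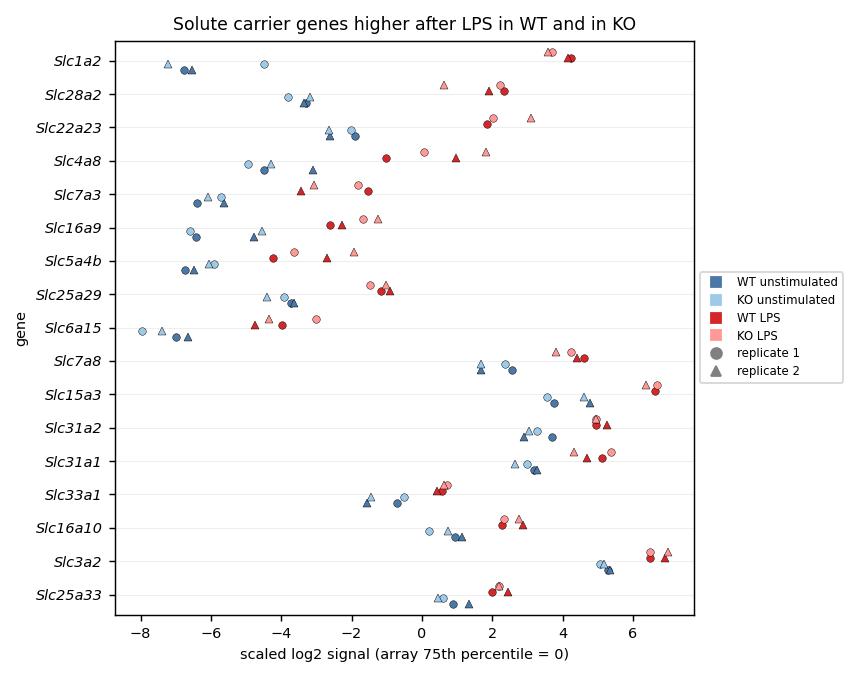
Scaled log2 signal (horizontal axis) of the 17 members called higher after LPS in both genotypes (rows), with 1 point per array, coloured by group and shaped by replicate number. In each row the LPS points lie to the right of the unstimulated points, by most for Slc1a2, and Slc22a23 and Slc15a3 lack the WT LPS replicate 2 point because that spot was marked as outlying.

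Of the lysosomal and proton-coupled carriers, 7 of 15 fell and 1 rose in each genotype, beside 10.7% of all genes lower in WT and 10.5% in KO. The members that fell were Slc36a1, Slc36a2, Slc46a1, Slc46a3, Slc48a1, Slc17a5 and Slc17a9, and the member that rose was Slc15a3. Slc36a2 is a proton-coupled carrier of glycine and proline. It read -2.01 and 1.87 in WT and -2.22 and 0.93 in KO before LPS, and -7.28 and -6.68 in WT and -7.24 and -7.56 in KO after LPS. No LPS array was well above background, and the fall was at least 34-fold in WT (adjusted p = 0.0158) and at least 25.5-fold in KO (adjusted p = 0.0161), although the unstimulated replicates of each genotype themselves differed by over 3. Slc46a3, a carrier of the lysosomal membrane, read 1.83 and 3.4 in WT and 1.41 and 3.06 in KO before LPS, and -2.63 and -1.66 in WT and -2.48 and -1.28 in KO after it. Its LPS difference was -4.76 ± 0.78 in WT and -4.11 ± 0.78 in KO (adjusted p = 0.00772 and 0.0121), -4.27 within slide 1 and -3.28 within slide 2.

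Slc36a1, which exports small amino acids from lysosomes with protons and whose promoter window is printed above, read 1.38 and 1.23, 1.18 and 1.36 on the unstimulated WT and KO arrays. After LPS it read 0.26 and -0.66 in WT and -0.07 and -0.88 in KO. All LPS arrays were below all unstimulated arrays, with differences of -1.5 ± 0.41 in WT and -1.74 ± 0.41 in KO (adjusted p = 0.0429 and 0.0259). Slc48a1, a heme carrier of endolysosomes, fell, with differences of -1.42 ± 0.27 in WT and -1.29 ± 0.27 in KO (adjusted p = 0.0125 and 0.0166), but its other probe gave -0.08 and -0.02, not called. Slc17a5, the sialic acid exporter of lysosomes, fell, with LPS differences of -1.95 ± 0.4 and -1.65 ± 0.4 (adjusted p = 0.0176 and 0.0301). Slc46a1, the proton-coupled folate carrier, fell as well, with differences of -1.68 ± 0.32 and -1.54 ± 0.32 (adjusted p = 0.0137 and 0.0175). The vesicular nucleotide carrier Slc17a9 fell, with differences of -1.35 ± 0.29 and -1.33 ± 0.29 (adjusted p = 0.0193 in each), while its other probe gave -0.82 and -0.22, not called. These last 4 had unstimulated and LPS arrays that did not overlap.

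Slc15a3, a peptide and histidine carrier of the lysosome, read 3.75 and 4.77 in WT and 3.55 and 4.61 in KO before LPS. After LPS it read 6.64 on the single usable WT array and 6.69 and 6.36 in KO. Its differences were 2.38 ± 0.62 in WT, with n = 1 LPS array and a spread taken from the other groups, and 2.45 ± 0.5 in KO (adjusted p = 0.0451 and 0.0219). Its relative Slc15a4, needed for endosomal Toll-like receptor signalling in some dendritic cells, had differences of -0.39 ± 0.37 and -0.75 ± 0.37 and was not called. The 6 remaining uncalled members, among them Slc36a4 and Slc15a2, had WT differences between -1.8 and 1.09. With slide as a term the group had 5 lower and 0 higher members in WT and 6 lower and 1 higher in KO, with medians of -1.23 and -1.04. Slc17a5 lost its call in both genotypes (adjusted p = 0.0524 and 0.0801), and in WT so did Slc36a1 (0.0613) and Slc15a3 (0.0539). Of these calls only that of Slc46a3 in WT held without each array in turn, and Slc36a2 reached an adjusted p of 0.0728 without WT LPS replicate 1 and 0.0916 without KO unstimulated replicate 2.

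Macrophage markers moved in the same direction as these lysosomal and proton-coupled carriers. Their median difference was -2.02 in WT and -1.79 in KO, and 13 of the 14 measured remained well above background on both arrays of each LPS group. Their summed signal ranged from 347 to 590 in WT unstimulated, 303 to 350 in WT LPS, 356 to 459 in KO unstimulated and 200 to 477 in KO LPS arrays. Median differences in WT and KO were also negative for markers of monocytes (-2.09 and -2.71) and of mast cells and basophils (-2.31 and -2.17). So were those of eosinophils (-4.41 and -3.03), NK cells (-2.95 and -2.81) and B cells (-2.15 and -1.38). T cell (-0.85 and -1.01) and neutrophil markers (-0.38 and -0.16) had smaller falls. Medians were positive for erythroid (1.86 and 2.1) and stromal markers (3.67 and 3.53). For the 16 dendritic cell markers the medians were 0.22 and 0.06, with 3 called higher and 3 lower in each genotype. The part of any of these cells in the result was not tested.

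**Figure D4:**
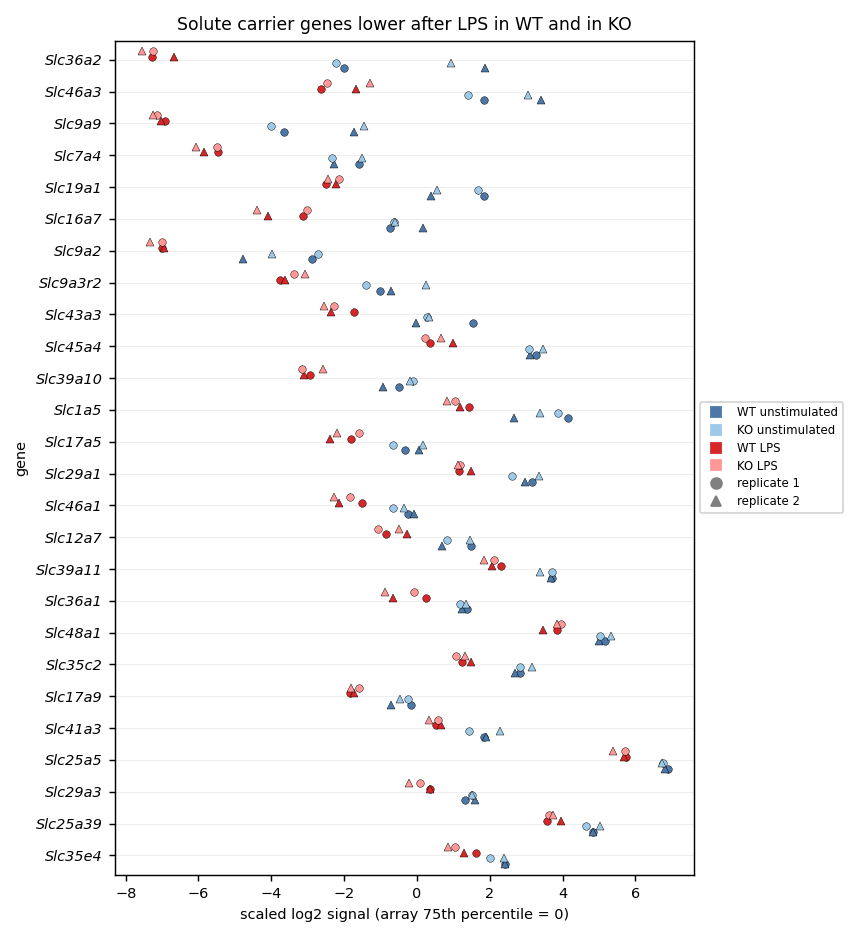
Scaled log2 signal (horizontal axis) of 26 of the 27 members called lower after LPS in both genotypes (rows), with 1 point per array, coloured by group and shaped by replicate number. The LPS points lie to the left of the unstimulated points in each row, and the unstimulated replicates of Slc36a2, Slc46a3 and Slc9a9 lie far apart, with replicate 2 higher.

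Of 16 sugar and inositol carriers, 1 was higher and 1 lower in WT (12.5% called, beside 20.2% of all genes) and 1 higher and 2 lower in KO (18.8%, beside 20.8%). The member that rose was Slc5a4b, of the sodium/glucose cotransporter family, which read -6.73 and -6.47 in WT and -5.91 and -6.06 in KO before LPS and -4.25 and -2.71 in WT and -3.65 and -1.94 in KO after it. The unstimulated arrays were not well above background, and the rise was at least 2.06-fold in WT and at least 6.4-fold in KO (adjusted p = 0.0197 and 0.0176). In each genotype the call of Slc5a4b was lost without at least 1 array, with differences from 2.35 to 3.89 in WT and 2.33 to 4.04 in KO. With normexp its differences were 0.62 and 2.09, not called (limma, adjusted p = 0.917 and 0.093). Slc45a4, of the sucrose transporter-like family, fell, with differences of -2.49 ± 0.33 in WT and -2.85 ± 0.33 in KO (adjusted p = 0.00351 and 0.00199). It read 3.26 and 3.1, 3.09 and 3.47 before LPS and 0.37 and 1.0, 0.21 and 0.66 after LPS in WT and KO, and it kept its calls without each array in turn. Slc5a11, a sodium/inositol cotransporter, fell by 3.42 ± 0.85 in KO (adjusted p = 0.031), and its WT difference of -2.92 ± 0.85 missed the threshold (adjusted p = 0.0525). Without KO unstimulated replicate 2 the adjusted p of Slc5a11 in KO was 0.121, with slide as a term it was 0.0869, and normexp gave its KO difference the opposite sign, 0.34. The intracellular glucose carrier Slc2a8 and the urate carrier Slc2a9 were not called, with WT differences of -1.45 ± 0.67 and 0.56 ± 0.82. For Slc2a8 the replicate 2 array was higher by over 1 in all 4 groups.

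Carriers of carboxylates and organic ions included some of the larger changes. Slc22a23, an organic ion carrier relative without a settled substrate, read -1.91 and -2.62 in WT and -2.03 and -2.64 in KO before LPS, 1.85 on the single usable WT LPS array and 2.01 and 3.11 in KO after LPS. Its differences were 4.12 ± 0.6 in WT and 4.89 ± 0.49 in KO (adjusted p = 0.00766 and 0.00206). The WT value takes its spread from the other groups, since it has n = 1 LPS array, and its adjusted p with slide as a term was 0.0704. The gene's other probe rose by 4.64 in WT and 4.83 in KO. Slc16a9, linked to carnitine efflux, rose by 3.16 ± 0.76 in WT and 4.1 ± 0.76 in KO (adjusted p = 0.0294 and 0.0113), and was at least 4.22-fold higher in WT, whose unstimulated arrays were not above background. The aromatic amino acid carrier Slc16a10 rose by 1.53 ± 0.34 and 2.08 ± 0.34 (adjusted p = 0.0222 and 0.00723).

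Slc16a7, a high-affinity carrier of pyruvate and lactate, fell. It read -0.75 and 0.17, -0.62 and -0.6 before LPS and -3.12 and -4.08, -3.02 and -4.38 after it in WT and KO, differences of -3.32 ± 0.56 and -3.09 ± 0.56 (adjusted p = 0.00887 and 0.0104). Its relative Slc16a8 fell by 2.68 ± 0.69 in KO (adjusted p = 0.0353), and the carnitine carrier Slc22a16 fell by 1.69 ± 0.43 there (adjusted p = 0.0343), while in WT these values were -2.24 ± 0.69 and -1.22 ± 0.43, not called. The fatty acid transport proteins Slc27a1 and Slc27a4 had WT differences of -0.95 ± 0.35 and 0.36 ± 0.33, not called. Slc16a10 kept its KO call and Slc22a23 its KO call without each array, and Slc22a23 kept its WT call in the 7 fits that could be made. Slc16a9 in WT reached 0.129 without WT unstimulated replicate 1, Slc16a10 in WT 0.119 and Slc16a7 in WT 0.051 without WT LPS replicate 2, and Slc16a8 in KO 0.147 without KO LPS replicate 2. Slc22a16 was not called in KO with slide as a term (0.0953).

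Nucleoside, vitamin and phosphate carriers moved in both directions, with 1 of 13 higher and 3 lower in each genotype. That was 30.8% called, beside 20.2% of all genes in WT and 20.8% in KO. Slc28a2, a sodium-coupled purine nucleoside importer, had the second largest rise in WT. Its probe (mm9 chr2:122286445-122286504) read -3.29 and -3.36 in WT and -3.8 and -3.19 in KO before LPS, and 2.33 and 1.9 in WT and 2.22 and 0.64 in KO after LPS. The differences were 5.44 ± 0.52 and 4.93 ± 0.52 (adjusted p = 0.00123 and 0.00145), 5.22 within slide 1 and 5.23 within slide 2. Of 3 equilibrative nucleoside carriers 2 went the other way, and Slc29a2 was not called (-0.87 in WT and -1.02 in KO). Slc29a1, of the plasma membrane, fell, with LPS differences of -1.76 ± 0.32 in WT and -1.83 ± 0.32 in KO (adjusted p = 0.0113 and 0.00913), and the lysosomal Slc29a3 fell, its differences being -1.1 ± 0.25 and -1.58 ± 0.25 (adjusted p = 0.0246 and 0.00673).

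Slc19a1, the reduced folate carrier, fell, with differences of -3.48 ± 0.56 in WT and -3.41 ± 0.56 in KO (adjusted p = 0.00742 in each). Its arrays read 1.85 and 0.38, 1.69 and 0.55 before LPS and -2.5 and -2.22, -2.13 and -2.45 after LPS, so the unstimulated replicates differed by over 1 and still stood clear of the LPS arrays. Slc28a2 and Slc19a1 kept their calls in both genotypes without each array. Slc29a1 reached 0.0675 in WT without LPS replicate 1, and Slc29a3 an adjusted p of 0.112 in WT without LPS replicate 1 and 0.0508 in KO without LPS replicate 2, and it was not called in WT with slide as a term (0.0591). The phosphate carrier Slc20a1 had differences of 1.2 ± 0.77 and 1.16 ± 0.77, not called, and its replicate 1 array was higher by over 1 in all 4 groups.

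Among metal carriers both copper carriers rose by their brightest probe. Slc31a1, the copper importer, read 3.18 and 3.28 in WT and 2.99 and 2.65 in KO before LPS and 5.13 and 4.69 in WT and 5.39 and 4.32 in KO after LPS. It rose by 1.68 ± 0.4 in WT and 2.04 ± 0.4 in KO (adjusted p = 0.0276 and 0.0137), while its other probe gave 0.6 and 0.68, not called. The other probe of Slc31a2 rose by 2.94 and 2.92. Slc31a2, a related protein of endolysosomes, rose by 1.8 ± 0.33 in each genotype (adjusted p = 0.0112 and 0.0105). Neither gene's LPS arrays overlapped its unstimulated arrays. The zinc importers Slc39a10 and Slc39a11 fell. Slc39a10 read -0.49 and -0.93, -0.11 and -0.18 before LPS and -2.95 and -3.11, -3.17 and -2.59 after LPS, differences of -2.31 ± 0.3 in WT and -2.74 ± 0.3 in KO (adjusted p = 0.00355 and 0.00179). Slc39a11 fell, with LPS differences of -1.52 ± 0.26 and -1.57 ± 0.26 (adjusted p = 0.00938 and 0.00766). Slc41a3, of a magnesium carrier family, also fell, with differences of -1.27 ± 0.33 and -1.4 ± 0.33 (adjusted p = 0.038 and 0.0267).

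The zinc and manganese importer Slc39a8 and the zinc importer Slc39a14 were not called by the brightest probe, with WT differences of -2.09 ± 1.28 and 1.1 ± 0.66. The other probe of Slc39a14 rose by 2.2 in WT (limma, adjusted p = 0.0379) and gave 1.69 in KO, not called. The spread of Slc39a8 came with the LPS replicates, which read -4.3 and -7.17 in WT and -4.21 and -7.55 in KO. The zinc exporter Slc30a1 had differences of 0.04 ± 0.32 and 0.16 ± 0.32. Slc39a9, named after its values were seen, read -5.24 on WT LPS replicate 2 and between -0.25 and 0.7 on the other 7 arrays, and its other probe had a WT difference of 0.57, not called. Slc39a10 kept its calls without each array. Slc31a1 in WT reached an adjusted p of 0.137 without LPS replicate 1, Slc31a2 0.067 and Slc39a11 0.0624 without WT LPS replicate 2, and Slc41a3 0.158 without WT LPS replicate 1. With slide as a term Slc31a1 (0.077) and Slc41a3 (0.0864) were not called in WT, nor Slc41a3 in KO (0.0625).

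Ion exchangers were led by Slc4a8, the bicarbonate exchanger whose promoter window is printed above. It read -4.5 and -3.1 in WT and -4.95 and -4.28 in KO before LPS, and -1.02 and 0.97 in WT and 0.07 and 1.83 in KO after it. The groups of the same genotype did not overlap, and the differences were 3.77 ± 0.86 in WT and 5.56 ± 0.86 in KO (adjusted p = 0.0243 and 0.00599). The gene's other 2 probes rose by 2.97 and 3.41 in WT and by 5.08 and 5.34 in KO. Slc9a9, an exchanger of endosomes, fell. It read -3.66 and -1.72 in WT and -4.01 and -1.45 in KO before LPS and -6.92 and -7.03 in WT and -7.15 and -7.24 in KO after LPS. The LPS arrays were not above background, and the fall was at least 5.53-fold in WT and at least 6.01-fold in KO (adjusted p = 0.0182 and 0.0152).

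Slc9a2, a sodium/proton exchanger of the plasma membrane, was well above background on 1 WT and both KO unstimulated arrays. Its fall was at least 2.52-fold in WT and at least 3.91-fold in KO (adjusted p = 0.0181 and 0.00883). Slc12a7, a potassium/chloride cotransporter, fell, with differences of -1.64 ± 0.42 and -1.92 ± 0.42 (adjusted p = 0.0349 and 0.0199). The Golgi exchanger Slc9a8 rose by 0.98 ± 0.28 in WT (adjusted p = 0.0481), with a KO value of 0.92 ± 0.28 that missed the threshold (adjusted p = 0.0593). The bicarbonate cotransporter Slc4a7, the calcium exchanger Slc8a1 and the cotransporter Slc12a2 were not called, with WT differences of 0.43 ± 0.62, 1.28 ± 0.54 and -0.44 ± 0.41. In WT, Slc4a8 reached an adjusted p of 0.118 without unstimulated replicate 1, Slc9a9 0.0778 without LPS replicate 2 and Slc9a2 0.0767 without LPS replicate 1, and Slc9a8 lost its call whichever of the 8 arrays was left out. With slide as a term, Slc9a9 (0.0517), Slc12a7 (0.0856) and Slc9a8 (0.0647) were not called in WT, nor Slc12a7 (0.0513) in KO. Normexp reversed the KO differences of Slc9a2 and Slc9a9, to 0.86 and 0.46.

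The mitochondrial family Slc25 was the largest, and its share of called members lay near that of all genes. Slc25a29, a carrier of basic amino acids, read -3.71 and -3.63 in WT and -3.91 and -4.42 in KO before LPS, and -1.16 and -0.91 in WT and -1.48 and -1.02 in KO after LPS. The rise was 2.64 ± 0.3 in WT and 2.91 ± 0.3 in KO (adjusted p = 0.00213 and 0.00131) and was kept without each array. The glutamate carrier Slc25a22 rose by 2.26 ± 0.5 in WT (adjusted p = 0.0213), where it read 0.31 and -0.72 before and 1.5 and 2.62 after LPS. Its KO difference of 1.56 ± 0.5 was not called (adjusted p = 0.0696). Slc25a33, a pyrimidine nucleotide carrier, rose by 1.12 ± 0.29 and 1.67 ± 0.29 (adjusted p = 0.0364 and 0.00883). Slc25a5, an ADP/ATP exchanger of the inner membrane, fell, with LPS differences of -1.14 ± 0.25 and -1.2 ± 0.25 (adjusted p = 0.0202 and 0.0163). Slc25a39, which carries glutathione, also fell, with differences of -1.08 ± 0.27 and -1.16 ± 0.27 (adjusted p = 0.0346 and 0.0266).

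The calcium-regulated ATP-magnesium/phosphate carriers Slc25a25 and Slc25a24 moved in opposite directions. Slc25a25 rose by 1.45 ± 0.38 in WT (adjusted p = 0.038) and had a KO value of 1.26 ± 0.38 (adjusted p = 0.0577), and Slc25a24 fell by 1.59 ± 0.33 in KO (adjusted p = 0.0168) and had a WT value of -1.14 ± 0.33 (adjusted p = 0.0523). In KO the ornithine carrier Slc25a15 fell by at least 2.03-fold (adjusted p = 0.0284; normexp turned its difference from -2.02 to 1.32) and Slc25a47 rose by 1.25 ± 0.27 (adjusted p = 0.0205). The citrate carrier Slc25a1, the phosphate carrier Slc25a3, the ADP/ATP exchanger Slc25a4 and the acylcarnitine carrier Slc25a20 were not called, with WT differences of 0.11 ± 0.44, -0.52 ± 0.25, -0.67 ± 0.26 and 0.23 ± 0.38. Apart from Slc25a29, each mitochondrial call was lost without at least 1 array, that of Slc25a33 in WT whichever of the 8 was left out (adjusted p up to 0.18) and that of Slc25a5 in WT whichever of the 4 WT arrays was left out (up to 0.0996). With slide as a term Slc25a25 (0.0868), Slc25a33 (0.0651) and Slc25a39 (0.0785) were not called in WT, nor Slc25a39 (0.0618) and Slc25a15 (0.0689) in KO.

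Nucleotide sugar and acetyl-CoA carriers feed glycosylation and acetylation in the Golgi and endoplasmic reticulum, and 3 of the 19 were called in each genotype (15.8%). Of all genes, 20.2% were called in WT and 20.8% in KO. The acetyl-CoA carrier Slc33a1 rose by 1.63 ± 0.41 in WT and 1.66 ± 0.41 in KO (adjusted p = 0.0335 and 0.03). Slc35c2, linked to GDP-fucose use, read 2.84 and 2.69, 2.82 and 3.17 before LPS and 1.23 and 1.48, 1.08 and 1.31 after LPS, differences of -1.41 ± 0.27 in WT and -1.8 ± 0.27 in KO (adjusted p = 0.0129 and 0.00491). Slc35e4 fell, its differences being -0.96 ± 0.27 and -1.24 ± 0.27 (adjusted p = 0.0478 and 0.02). Slc35c2 kept its KO call without each array and in WT reached 0.0782 without LPS replicate 1. Slc33a1 and Slc35e4 were not called with slide as a term in either genotype (adjusted p = 0.0854 and 0.102 in WT, 0.0792 and 0.0518 in KO). The CMP-sialic acid carrier Slc35a1 and Slc35b1 had WT differences of -0.22 ± 0.29 and 0.31 ± 0.51.

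Of the members that are not carriers, the scaffold gene Slc9a3r2 fell, with differences of -2.84 ± 0.52 in WT and -2.66 ± 0.52 in KO (adjusted p = 0.0114 and 0.0134), and Slc7a6os rose by 1.19 ± 0.29 in KO (adjusted p = 0.0303). Its WT value of 0.97 ± 0.29 was not called (adjusted p = 0.0591). Transport genes outside the Slc families were counted beside them. Of 26 ABC transporters, ATP-driven exporters, 3 were higher and 6 lower in WT and 3 higher and 7 lower in KO, with median differences of -0.87 and -1.02. Of 14 ion pump genes 0 were higher and 1 lower in each genotype. Of 9 genes for carrier partners and related proteins 1 was higher and 3 lower in WT and 1 higher and 2 lower in KO. Among all genes tested, 9.48% were higher and 10.7% lower in WT, and 10.3% and 10.5% in KO.

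The design also asked whether loss of miR-155 changed these genes. Among the 205 members limma called 0 between KO and WT in the unstimulated state, beside 37 of 15401 genes (0.24%), and 0 after LPS, beside 4 genes (0.026%). It also called 0 averaged over both states, beside 22 genes (0.143%), and 0 for the difference between the LPS responses, beside 7 genes (0.0455%). At an unadjusted p under 0.05 there were 2, 1, 1 and 1 members. The lowest adjusted p among members was 1 in each of the 4 comparisons. Members with no called difference are not shown to be equal. The median half-width of the 95% interval was 0.88 for KO against WT in the unstimulated state and 1.25 for the difference between responses, and 197 of the 205 members had a difference between responses under 1 in size.

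The glycine carrier Slc6a9 had the lowest p after LPS and for the difference between responses. It read -1.57 and -1.45 in WT and -1.37 and -1.75 in KO before LPS, -0.92 and -0.69 in WT after LPS, and 0.41 and 0.58 in KO after LPS. Both KO LPS arrays were above the 6 others. KO minus WT was 1.3 ± 0.26 after LPS and -0.05 ± 0.26 without it, and the KO response exceeded the WT response by 1.35 ± 0.37 (adjusted p = 1). Its LPS rise of 2.05 ± 0.26 was called in KO (adjusted p = 0.00286), and the WT value of 0.71 ± 0.26 was not (adjusted p = 0.108). Slc6a15 had a response in KO that exceeded that in WT by 1.55 ± 0.72 (adjusted p = 1). Its unstimulated values all lay below the dimmest signal flagged above background on their array, so the size of that difference is uncertain.

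In the unstimulated state the zinc importer Slc39a4 read 4.14 and 5.11 in WT and 3.23 and 3.91 in KO, a difference of -1.05 ± 0.41, and the vesicular glutamate carrier Slc17a8 read -4.87 and -5.33 in WT, where it was not well above background, and -4.5 and -4.33 in KO. Slc25a33 and Slc4a5 differed by -0.57 ± 0.29 and -1.18 ± 0.6 there. After LPS, KO minus WT was -1.67 ± 0.82 for Slc2a9, -0.47 ± 0.24 for the GDP-fucose carrier Slc35c1 and -0.5 ± 0.27 for Slc35e4. The WT LPS values of Slc2a9 were -1.9 and -4.49, so that difference rests on 1 array. For the oxoglutarate carrier Slc25a11 the KO response exceeded the WT response by 0.58 ± 0.39. None of these passed the adjustment.

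**Figure D5:**
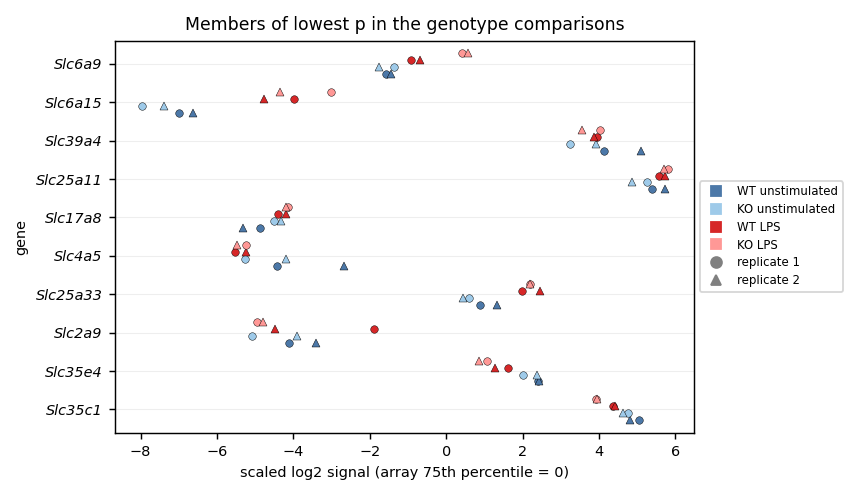
Scaled log2 signal (horizontal axis) of the 10 members with the lowest p in the genotype comparisons (rows), with 1 point per array, coloured by group and shaped by replicate number. The KO LPS points of Slc6a9 (0.41 and 0.58) lie above the WT LPS points (-0.92 and -0.69), and no member's genotype difference passed the adjustment over all genes.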

How the data were processed

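RNA from sorted dendritic cells was hybridised to 8 one-colour Agilent arrays. The deposited scanner files hold intensity values, a background-subtracted processed signal that is linear and not scaled between arrays, and spot flags, an other unit of 0 or 1, both made by the authors with Agilent Feature Extraction 10.5.1.1 per the file headers. The deposited matrix of the series holds log2 values and equalled the log2 scanner signal plus a constant on each array. The log2 processed signal minus each array's 75th percentile was used without outlying spots (120 to 174 per array). Probes well above background on both arrays of a group were kept, 23739 of 41174, and the brightest probe stood for each gene name. Of the members' probes, 195 accessions matched RefSeq symbols. Group means were fitted over all 15401 genes with limma 3.58.1 in R 4.3.3 (the data.table package, version 1.17.8, for reading), tested on simulated data, with two-sided p-values adjusted by Benjamini-Hochberg. With 2 arrays per group, array number limits precision. Errors are standard errors of the fit.

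The members, roles and lists were chosen with earlier results of these data known. Named genes were the 8 largest called rises and falls in each LPS comparison, the 4 of lowest p in each genotype comparison, and a list of 56 genes of which 55 were measured. Other called members were named after their values were seen. Alternatives covered scaling, background correction, the background filter, probe choice, slide, replicate number, the deposited table and leaving out each array. Of the called members, 1 is not reported here by name.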

Additional observations from a re-analysis of the deposited data

How the results depend on the processing

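Of the members called, 44 of 48 in WT and 49 of 52 in KO stayed called with the array median subtracted, a scaling that moved the median difference of all genes from 0 to -0.11 in WT and from 0.05 to -0.14 in KO. All 48 and 52 stayed called with quantile normalization. They also stayed called with the deposited table, which holds the same log2 signals plus a constant on each array and is therefore no separate check. Counting every probe on its own gave 76 calls in WT and 84 in KO. Normexp gave 8 and 17, and within 1 slide there were 23 in WT and 6 in KO from fewer arrays. The normexp calls in KO split into 9 higher and 8 lower, beside 20 and 32, and the share of higher calls among all genes was 62% beside 49.6%. The cause of the normexp differences was not tested. Normexp also reversed Slc5a11 (0.34), Slc9a2 (0.86), Slc9a9 (0.46) and Slc25a15 (1.32) in KO. Leaving out 1 array gave 14 to 46 calls in WT and 25 to 53 in KO. No member was called between genotypes under any setting run. The labels do not state that equal replicate numbers share a source, and replicate differences correlated between 0.01 and 0.69 over pairs of groups. A fit with replicate number as a block called 65 members in WT and 64 in KO. Each group has 2 arrays, and values near background carry little information on size.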

Other observations

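Same-numbered LPS replicates of the 2 genotypes separated some members that the group comparisons left uncalled. After LPS, 10 members (4.88%) were higher by over 1 log2 unit in replicate 1 of both WT and KO, beside 3.31% of all genes, and 13 (6.34%) were higher by over 1 in replicate 2 of both, beside 4.06%. Slc28a3, a concentrative nucleoside importer, read -1.15 in WT and -0.23 in KO on the LPS replicate 1 arrays and -5.01 and -4.93 on the replicate 2 arrays. Slc14a1, a urea carrier, read -2.81 and -2.51 on the former and -6.39 and -5.52 on the latter. The serotonin carrier Slc6a4 went the other way, with 0 and 0.17 on replicate 1 and 1.25 and 2.04 on replicate 2. The summed signal of the mast cell and basophil markers was 115 in WT and 113 in KO on the LPS replicate 1 arrays. On the LPS replicate 2 arrays it was 15 and 6.12. Only 2 of the 8 measured markers of this list were well above background on both arrays of each LPS group. After LPS, 4 of the 8 were called lower and 2 higher in each genotype, so the sum does not stand for the list as a whole. The part of such cells in these splits was not tested. In the unstimulated state 12 members (5.85%) were higher by over 1 in replicate 2 of both genotypes, beside 3.53% of all genes. Among them were Slc36a2, Slc46a3, Slc9a9 and Slc43a2, which were called lower after LPS in at least 1 genotype. Replicate 1 was higher by over 1 in both for 6 members (2.93%, close to the 2.75% of all genes), among them Slc19a1 and Slc9a2. These genes were named after their values were seen.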
